A study of Solanum lycopersicum with 24 samples.

Results

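Ethylene response factors and their relatives, the AP2/ERF family of plant transcription factors, were followed in purple fruit of tomato (Solanum lycopersicum). Members were the genes whose deposited description names an ethylene response factor, an ethylene-responsive transcription factor, an AP2/ERF protein or a dehydration-responsive element-binding protein. Of 34689 described genes, 159 were members. The rule also sets 2 identifiers aside, which removed 0 of the genes found by its words. By their descriptions, 130 members were ERF genes, 17 were AP2-like, 11 were of the dehydration-responsive element-binding (DREB) type and 1 was of the RAV type. These types follow the words alone, not the proteins. Genes described as ethylene-responsive, such as RAP2.1 (Solyc04g078640) and RAP2-10 (Solyc02g093130), thus count as ERF here.

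Proteins of this family share a DNA-binding domain and act at the end of several signalling routes. When ethylene binds its receptors, the brake kept by CTR1 kinases is released, EIN3-like proteins accumulate, and these switch on ERF genes, whose products bind the GCC box of further target genes. DREB proteins bind the dehydration-responsive element and are known for responses to cold and drought, whereas AP2-like proteins are known for the growth and identity of organs. In tomato the family is known for its part in fruit ripening, and class F is known as a class of transcriptional repressors.

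All fruit carried the genotype MT-Aft/atv/hp2, so no group lacked these alleles. Aft brings an activator of anthocyanin synthesis, atv is the loss of a repressor of it, and hp2 heightens the response to light. Control fruit grew in light for 30 d, while the other fruit were wrapped in foil as flowers, kept so for 30 d and then sampled on removal of the foil (0 d), with 2 d of light or with 5 d of light. Epicarp, the skin, and mesocarp, the flesh beneath, were taken separately in each of these 4 conditions, which gave 8 groups of 3 libraries. Darkness came only with the foil, so the cover and the dark cannot be told apart, nor can light and the removal of the cover. The labels do not say that the 3 libraries of a group came from separate plants or fruits. Each p-value below thus measures the spread between libraries, which may be technical. In the main fit that spread is estimated for each gene over all 8 groups together, not from the groups compared alone. The study asked how anthocyanin accumulation in these tissues is regulated by light.

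Between 18402751 and 23197867 reads per library were assigned to genes. Dihydroflavonol 4-reductase, an enzyme of anthocyanin synthesis, stood at 0.308 to 1.33 read counts scaled to a common library total of 1e6 (CPM) at 0 d and at 2984 to 5021 CPM at 2 d. The summed level of 4 epidermis and cuticle genes was 239 to 9097 CPM in epicarp and 2.35 to 19.4 CPM in mesocarp, except in replicate 1 of mesocarp at 0 d, where it was 655 CPM. The libraries at 0 d stood apart from one another: in epicarp the cuticle genes summed to 9097, 422 and 465 CPM in replicates 1 to 3, and 3 ripening genes to 98.8, 184 and 2944 CPM. Replicates correlated in log CPM at 0.871 to 0.937 in epicarp and 0.874 to 0.934 in mesocarp at 0 d, and 0.952 to 0.985 in the other groups. In the main fit, comparisons with 0 d share a spread with these closer groups, and the other comparisons share one with 0 d. Calls with 0 d may thus be too many and other calls too few. In bulk tissue, fewer cells of a type and less RNA per cell cannot be told apart.

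Of the 159 members, 51 had no read in any library and 108 had at least 1 read somewhere. After a filter on low counts, 70 members entered the tests, 53 of them ERF, 10 AP2-like and 7 DREB, and the other 38 with reads had a mean of at most 1.15 TPM, the level per gene length on the same scale. On chromosome 1, 2 of 23 members had a read, against 11 of 11 on chromosome 6 and 6 of 6 on chromosome 7. In 23 stretches where neighbours lay at most 50 kb apart there were 59 members, and 31 of these 59 had a read. Neighbouring copies may share reads, so the values of single genes in such stretches are less certain.

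A few genes carried much of the family's message. Levels between genes are compared here as TPM, which divides reads by the length of the gene interval, introns included. A mean over 100 TPM was found for 11 members and one between 10 and 100 TPM for 23, and the other 36 tested members were lower. The family's summed level was 4097 ± 361 TPM (SD, n = 3) in epicarp control, 5807 ± 769 TPM at 0 d, 3403 ± 167 TPM at 2 d and 3616 ± 185 TPM at 5 d. In mesocarp it was 3580 ± 227 TPM in control, 4091 ± 310 TPM at 0 d, 3055 ± 59.0 TPM at 2 d and 3351 ± 405 TPM at 5 d. In both tissues the sum had its highest mean at 0 d and its lowest at 2 d. Ethylene Response Factor F.2 (Solyc07g064890, chromosome 7, 66698452-66699174 of build SL4.0, which all coordinates here use) and A.3 (Solyc06g063070, chromosome 6, 37469043-37471605) together took between 27.2% and 41.8% of it as group means.

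F.2, of the repressor class, was the highest member, with a mean of 742 TPM (Solyc07g064890). It was 218, 229 and 220 CPM in epicarp control, 212, 228 and 251 CPM at 0 d and 188, 216 and 179 CPM at 2 d, with overlap between 0 d and the others. In mesocarp it was 181, 221 and 178 CPM in control and 195, 172 and 204 CPM at 0 d, which overlapped too, and F.2 passed in 0 of 14 comparisons, 12 between groups and 2 interactions. A.3 (Solyc06g063070) had a mean of 620 TPM and also passed in 0 comparisons, but its libraries at 0 d disagreed. In epicarp it was 222, 375 and 563 CPM in control and 256, 480 and 1167 CPM at 0 d. In mesocarp at 0 d it was 422, 762 and 1126 CPM, so replicate 3 was the highest in both tissues, and 0 d overlapped control in both.

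**Figure D1:**
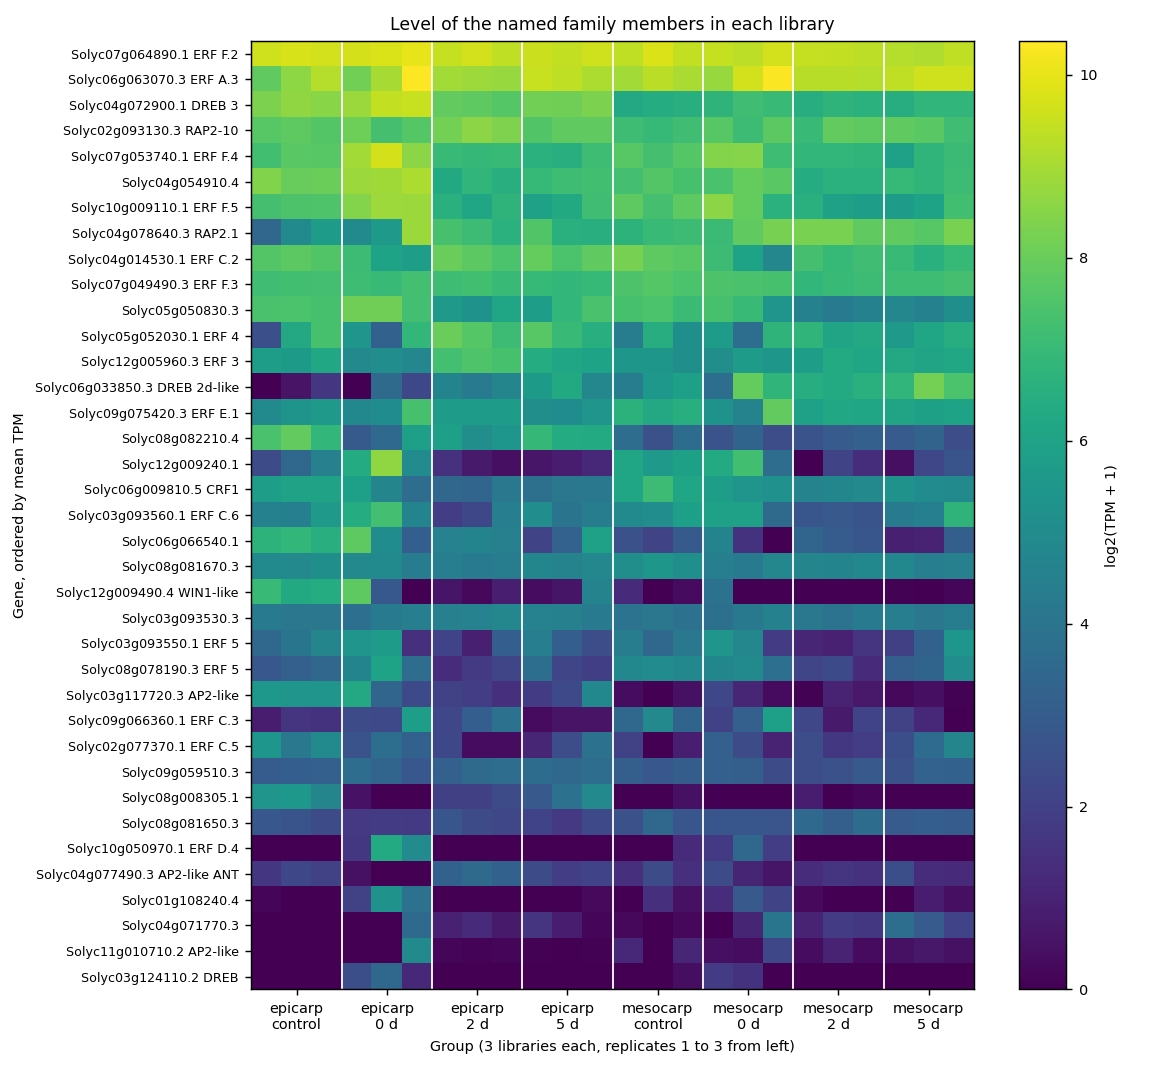
Level of 37 named and tested members (rows, ordered by mean TPM) in the 24 libraries (columns, 8 groups of 3), as log2(TPM + 1). F.2 and A.3 are the topmost rows, high in every library, while several lower rows are high in single libraries at 0 d.

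The cover was compared with light-grown control first in epicarp. Of 70 tested members, 22 passed an adjusted p of 0.05 in edgeR's quasi-likelihood test, 16 higher and 6 lower, which is 31.4% of members. Of all genes tested 19.1 percent passed, 10.1 percent higher and 9.08 percent lower. The median log2 fold of the members was 0.17 beside 0.04 for all genes, and 0.12 for the members with those that had no read in 1 group set at their bound. With only these groups in the fit 3 of 55 members passed, 2 higher and 1 lower (5.13 percent of all genes). Most epicarp calls with the cover given below were thus lost in that fit, also where this is not repeated. Without replicate 3 of both tissues at 0 d 16 passed (17 percent of all genes). Leaving out single libraries gave 11 to 28, with 12, 11 and 14 without control replicates 1, 2 and 3 and 14 without 0 d replicate 3. Folds use library sizes scaled by TMM, which moved log2 folds by -0.06 to 0.21 from those of plain CPM, and by over 0.1 at 5 d against control (0.11 in epicarp, 0.21 in mesocarp) and at 2 d against 0 d in mesocarp (0.16). With limma on log2(TPM + 1), which carries no TMM scaling, the split was 12 higher and 8 lower, beside 10.2 percent higher and 9.81 percent lower of all genes. By the type in the description, 11 ERF, 2 AP2-like and 3 DREB members were higher and 5 ERF and 1 AP2-like member were lower.

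After the cover came off, more of the family moved, mostly downwards. In epicarp at 2 d against 0 d, 31 members passed, 8 higher and 23 lower, or 44.3%, beside 36.7 percent of all genes, 17.6 percent higher and 19 percent lower. The median log2 fold was -0.68 for members and -0.07 for all genes, and -0.52 for members with the groups without a read at their bound. Of the 53 members described as ERF 16 were lower and 7 higher, and of the 10 described as AP2-like 3 were lower and 1 higher. Of the 7 described as DREB 4 were lower and 0 higher. Without replicate 3 of both tissues at 0 d, 36 members passed, 13 higher and 23 lower, beside 39.5 percent of all genes. With only the groups compared in the fit, 8 of 56 members were higher and 13 lower, beside 2714 higher and 2185 lower of 17449 genes. With limma on log2(TPM + 1), 11 members were higher and 21 lower, and all genes leaned downwards too, with 3098 higher and 4325 lower of 19620.

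In mesocarp at 2 d against 0 d, 14 members passed, 3 higher and 11 lower, beside 24.1 percent of all genes (13.3 percent higher, 10.8 percent lower). Among all genes that split turned with limma on log2(TPM + 1), to 10.5 percent higher and 18.4 percent lower, while the members stood at 5 higher and 12 lower. The edgeR count of members was 9 without 2 d replicate 2 and 7 without 2 d replicate 3. At 0 d against control, 3 mesocarp members passed, 1 higher and 2 lower, beside 4.3 percent of all genes (2.4 percent higher, 1.9 percent lower). Limma gave 1 higher and 3 lower, and all genes turned, to 1.51 percent higher and 6.06 percent lower. In edgeR the count was 0 without control replicate 1 or 0 d replicate 2, 1 without control replicate 2 or 3, and 0 with only those groups in the fit (0.0334 percent of all genes). Across the tissues, 10 members were lower with light in both (beside 7.47 percent of all genes), 3 were higher in both (beside 10.4 percent) and 0 moved in opposite directions (beside 0.138 percent).

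Class F members 4 and 5, of the repressor class, were high under the cover in epicarp and low after it. F.4 (Solyc07g053740, chromosome 7, 62092302-62092979) was 39.4, 53.5 and 52.1 CPM in epicarp control and 116, 206 and 87.5 CPM at 0 d, with no overlap. After 2 d of light it was 32.2, 30.03 and 31.7 CPM, below every 0 d library. Its log2 folds were 1.56 ± 0.34 (SE) with the cover (edgeR adjusted p = 0.00382) and -2.08 ± 0.35 with light (adjusted p = 0.000129), and the first missed the threshold with only those groups in the fit (adjusted p = 0.062). In mesocarp F.4 was 90.5, 90.2 and 33.2 CPM at 0 d and 29.6, 29.6 and 27.7 CPM at 2 d, again without overlap, a log2 fold of -1.13 ± 0.34 (adjusted p = 0.021). That mesocarp call was lost without 0 d replicate 1 (adjusted p = 0.0831), 0 d replicate 2 (adjusted p = 0.0895) or 2 d replicate 3 (adjusted p = 0.0592), and with only those groups in the fit (adjusted p = 0.083).

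F.5 (Solyc10g009110, chromosome 10, 3006768-3007436) ran beside it. In epicarp it was 40.9, 43.97 and 45.9 CPM in control, 82.4, 112 and 104 CPM at 0 d and 23.9, 16.9 and 26.1 CPM at 2 d, so the 3 groups did not overlap. The log2 fold with light was -2.10 ± 0.44 (edgeR adjusted p = 0.001). With the cover it was 1.24 ± 0.43 (adjusted p = 0.0487), a call lost without any 1 of the control libraries or without 0 d replicate 2 or 3 (adjusted p 0.105 to 0.167). In mesocarp it was 96.3, 58.5 and 22.8 CPM at 0 d and 23.5, 15.04 and 13.5 CPM at 2 d, groups that overlapped. That log2 fold was -1.59 ± 0.43 (adjusted p = 0.0116), lost without 0 d replicate 1 (adjusted p = 0.0872) or 2 d replicate 3 (adjusted p = 0.0519) and with only those groups in the fit (adjusted p = 0.0887). F.3 (Solyc07g049490), of the same class, did not pass with the cover or with the first 2 d of light in either tissue.

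The fall with light that had the smallest adjusted p was that of Solyc04g054910 (chromosome 4, 52704084-52705828), described only as an ethylene-responsive transcription factor. In epicarp it was 225, 161 and 170 CPM in control, 278, 297 and 331 CPM at 0 d, 50.5, 71.6 and 58.6 CPM at 2 d and 77.7, 87.8 and 96.1 CPM at 5 d. Every 0 d library was above every other epicarp library. The log2 fold with light was -2.26 ± 0.16 (edgeR adjusted p = 8.16e-09), and at 5 d against control it was -0.98 ± 0.16 (adjusted p = 0.000653). With the cover it was 0.74 ± 0.16 (adjusted p = 0.00308, but 0.0707 with only those groups in the fit). In mesocarp it was 113, 155 and 127 CPM at 0 d and 54.9, 64.4 and 63.9 CPM at 2 d, without overlap, a log2 fold of -0.95 ± 0.16 (adjusted p = 0.000224). Epicarp was higher than mesocarp by 0.88 ± 0.16 in control (adjusted p = 0.000406), while at 2 d the difference was -0.08 ± 0.16 (adjusted p = 0.779).

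Another gene without a further name, Solyc05g050830 (chromosome 5, 60438177-60438938), fell with light in both tissues and stayed low in mesocarp. Its mesocarp levels were 46.5, 44.5 and 35.8 CPM in control, 47.4, 35.7 and 10.8 CPM at 0 d, 6.39, 5.25 and 6.47 CPM at 2 d and 7.69, 6.34 and 9.79 CPM at 5 d. The libraries of 2 d and 5 d lay below all others of that tissue. Its log2 folds were -2.19 ± 0.42 at 2 d against 0 d (edgeR adjusted p = 0.000904) and -2.20 ± 0.42 at 5 d against control (adjusted p = 0.00109). Its epicarp levels were 74.9, 76.8 and 40.6 CPM at 0 d and 13.2, 10.8 and 19.01 CPM at 2 d, without overlap (log2 fold -2.11 ± 0.42, adjusted p = 0.000601). Its epicarp libraries at 5 d were 14.6, 31.6 and 47.2 CPM, wide apart.

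The clearest rise with light was that of a gene described as ethylene-responsive transcription factor 3 (Solyc12g005960, chromosome 12, 600464-601045). The epicarp libraries stood at 12.5, 10.6 and 15.5 CPM in control, 5.83, 6.88 and 5.43 CPM at 0 d, 33.01, 39.3 and 34.9 CPM at 2 d and 17.7, 14.1 and 13.5 CPM at 5 d. The 2 d libraries were above all others of the tissue and the 0 d libraries below. The log2 folds were 2.62 ± 0.20 with light (edgeR adjusted p = 1.56e-08) and -1.23 ± 0.19 from 2 d to 5 d (adjusted p = 0.00142). With the cover it was -1.04 ± 0.19 (adjusted p = 0.00116, but 0.055 with only those groups in the fit). The mesocarp libraries stood at 7.43, 10.8 and 8.83 CPM at 0 d, 11.96, 17.7 and 15.3 CPM at 2 d and 16.4, 13.8 and 15.3 CPM at 5 d, with no overlap between 0 d and the later times. Its log2 fold there was 0.89 ± 0.19 at 2 d (adjusted p = 0.0021, but 0.0584 with only those groups in the fit) and -0.01 ± 0.19 from 2 d to 5 d (adjusted p = 0.994). The light effect was larger in epicarp by 1.73 ± 0.27 on the log2 scale (interaction, adjusted p = 0.00261).

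ERF C.2 (Solyc04g014530, chromosome 4, 4826573-4827274) was low at 0 d. Epicarp libraries held 52.7, 57.3 and 49.6 CPM in control, 33.7, 16.2 and 13.3 CPM at 0 d and 66.1, 55.6 and 44.8 CPM at 2 d, with every 0 d library below both. The return with light passed (log2 fold 1.46 ± 0.41, edgeR adjusted p = 0.00899). The fall with the cover was -1.29 ± 0.41 (adjusted p = 0.0327) and was lost without any 1 of the control libraries or without 0 d replicate 2 or 3 (adjusted p 0.0599 to 0.132). In mesocarp it went from 79.6, 52.3 and 50.3 CPM in control to 37.2, 16.3 and 6.55 CPM at 0 d, without overlap. That log2 fold of -1.55 ± 0.41 (adjusted p = 0.0374) was lost without any 1 of the control libraries or without 0 d replicate 2 or 3 (adjusted p 0.0686 to 0.124).

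A gene on chromosome 8, Solyc08g081650 (chromosome 8, 62756274-62759000), went the same way in epicarp, at 6.39, 5.55 and 4.44 CPM in control, 2.24, 2.41 and 2.23 CPM at 0 d and 5.90, 4.18 and 3.60 CPM at 2 d. The 0 d libraries were close together and below those of control and 2 d. The log2 folds were -1.20 ± 0.27 with the cover (edgeR adjusted p = 0.00435, but 0.0652 with only those groups in the fit) and 1.05 ± 0.27 with light (adjusted p = 0.0049). In mesocarp it rose with light by 0.98 ± 0.26 (adjusted p = 0.00975), which was lost without 2 d replicate 3 (adjusted p = 0.057).

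**Figure D2:**
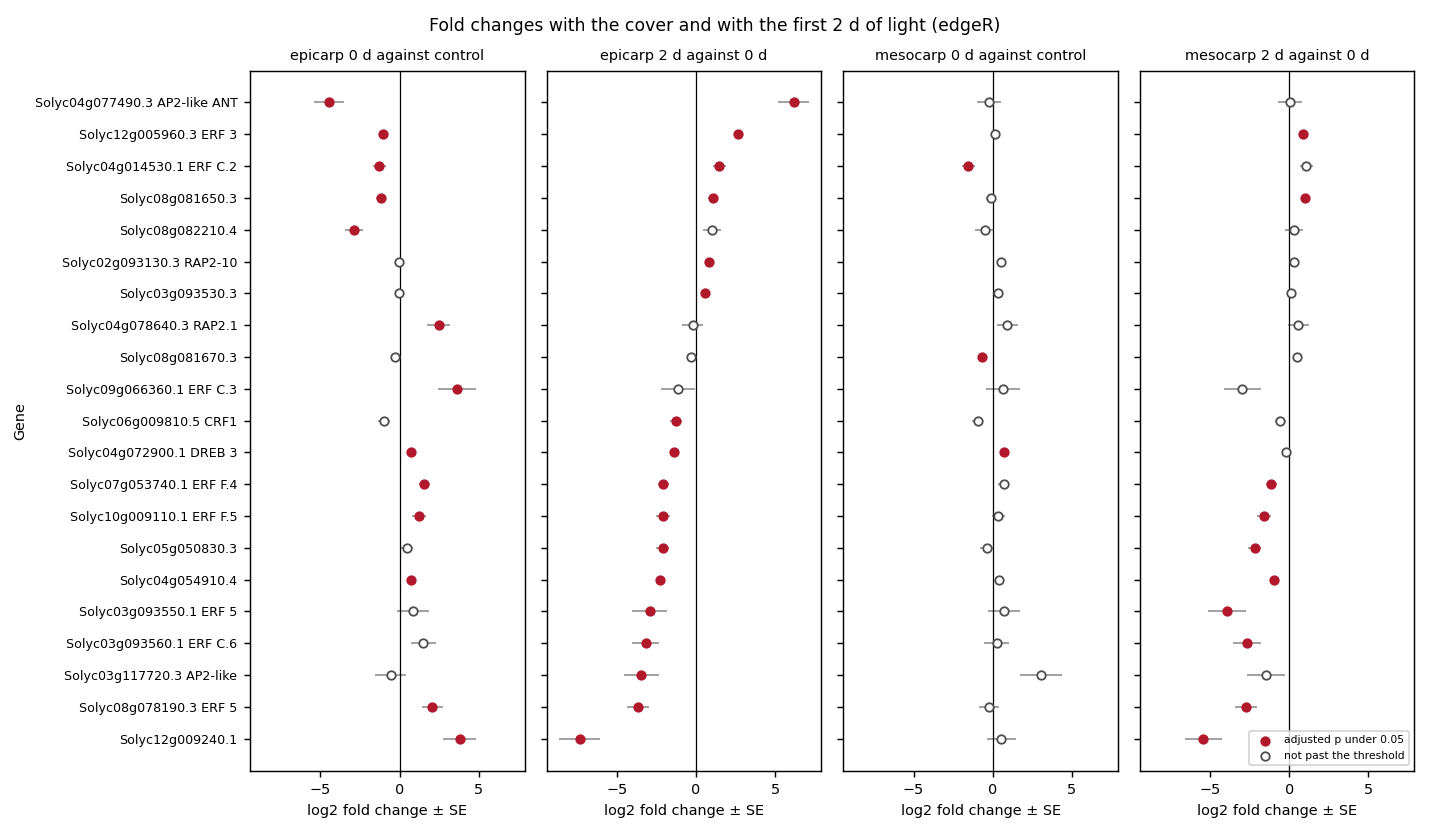
Log2 fold changes ± SE of named members that passed in at least 1 of 4 comparisons (panels), with filled points past an adjusted p of 0.05. Members without a read in a whole group are left out. Factor 3 (ERF 3) rises by 2.62 and Solyc04g054910 falls by 2.26 with light in epicarp, and the points in mesocarp lie nearer to 0 for both.

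Among AP2-like members, the one described as ANT (Solyc04g077490, chromosome 4, 60418478-60421941) was nearly without reads under the cover in epicarp. In Arabidopsis ANT promotes the growth of organs. Its epicarp levels were 2.79, 4.90 and 3.98 CPM in control, 0.477, 0 and 0 CPM at 0 d, 10.7, 14.03 and 10.7 CPM at 2 d and 5.17, 3.43 and 4.17 CPM at 5 d. The 0 d libraries were the lowest and the 2 d libraries the highest of the tissue. The log2 folds were -4.46 ± 0.92 with the cover (edgeR adjusted p = 0.00259, but 0.0884 with only those groups in the fit) and 6.17 ± 0.96 with light (adjusted p = 6.26e-05). Mesocarp libraries held 5.53, 1.43 and 0.615 CPM at 0 d and 1.92, 2.65 and 2.28 CPM at 2 d, groups that overlapped. The light effect differed between the tissues by 6.12 ± 1.19 (interaction, adjusted p = 0.0117).

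Low points at 0 d were also seen in unnamed members that are mainly epicarp genes. Solyc08g008305 (chromosome 8, 2730694-2731698) was 16.1, 17.01 and 9.61 CPM in epicarp control, 0.143, 0 and 0 CPM at 0 d, 1.10, 1.08 and 1.60 CPM at 2 d and 2.29, 4.92 and 10.4 CPM at 5 d. At 0 d this came to 3 reads over the group, so no fold is given; the fall (edgeR adjusted p = 0.000267) and the rise with light (adjusted p = 0.00422) both passed. Control, 0 d and 2 d did not overlap, while 5 d overlapped control. Solyc08g082210 (chromosome 8, 63173729-63175001) fell from 81.3, 112 and 54.9 CPM in epicarp control to 2.96, 4.88 and 24.98 CPM at 0 d. That log2 fold was -2.89 ± 0.58 (adjusted p = 0.00217, but 0.097 with only those groups in the fit). At 2 d it was 26.7, 15.9 and 19.9 CPM, a log2 fold of 1.01 ± 0.55 that did not pass (adjusted p = 0.162), and 0 d replicate 3 overlapped these libraries.

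**Figure D3:**
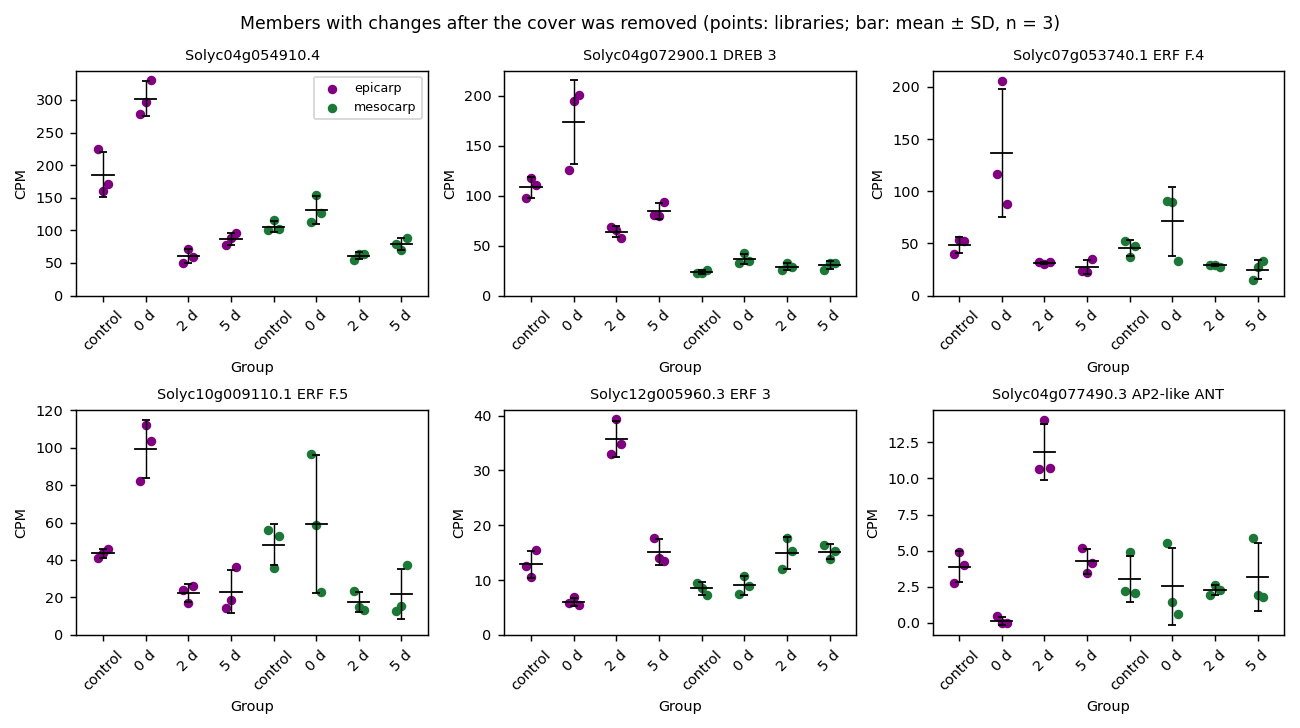
CPM of 6 members in every library (points), with the mean ± SD of each group (n = 3). In epicarp, Solyc04g054910, DREB 3, F.4 and F.5 are highest at 0 d, whereas factor 3 (ERF 3) and ANT are lowest at 0 d and highest at 2 d.

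Several members were seen in epicarp at 0 d and little elsewhere in that tissue. ERF D.4 (Solyc10g050970, chromosome 10, 50271189-50271860) had no read in epicarp control, 2 d or 5 d and stood at 0.525, 19.4 and 7.17 CPM at 0 d. With a floor of 3 reads over the libraries of a group, its level at 0 d was at least 184-fold higher than in control (edgeR adjusted p = 0.0137, but 0.0936 with only those groups in the fit) and at least 189-fold higher than at 2 d (adjusted p = 0.00688). Solyc01g108240 (chromosome 1, 87916238-87917561) was 0.0537, 0 and 0 CPM in epicarp control and 1.43, 18.5 and 6.14 CPM at 0 d (adjusted p = 0.00223). It had no read at 2 d, at least 182-fold lower than at 0 d (adjusted p = 0.000481). In mesocarp at 0 d D.4 was 0.615, 2.46 and 0.615 CPM and Solyc01g108240 0.768, 3.11 and 1.54 CPM, so replicate 2 was the highest for both genes in both tissues.

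A further member with replicate 2 highest at 0 d was Solyc12g009240 (chromosome 12, 2572639-2573385). The epicarp libraries stood at 1.18, 2.91 and 6.18 CPM in control, 22.01, 107 and 7.93 CPM at 0 d and 0.503, 0.188 and 0.0972 CPM at 2 d. Every 0 d library was above control and every 2 d library below it. With light its log2 fold was -7.37 ± 1.29 (edgeR adjusted p = 0.000217). The rise with the cover was 3.81 ± 1.03 (adjusted p = 0.0146), lost without control replicate 1 (adjusted p = 0.0738), control replicate 2 (adjusted p = 0.0659) or 0 d replicate 2 (adjusted p = 0.17). Its mesocarp levels were 19.4, 12.1 and 15.6 CPM in control, 22.7, 40.7 and 3.12 CPM at 0 d and 0, 0.949 and 0.435 CPM at 2 d. There too every 2 d library was below every 0 d library, a log2 fold of -5.42 ± 1.18 (adjusted p = 0.0025).

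ERF C.6 (Solyc03g093560) and Solyc08g078190, described as factor 5, fell with light in both tissues. In epicarp C.6 was 21.7, 40.6 and 6.14 CPM at 0 d and 0.732, 1.03 and 5.64 CPM at 2 d (log2 fold -3.19 ± 0.87, edgeR adjusted p = 0.00765, but 0.0646 with only those groups in the fit). Factor 5 was 9.36, 24.4 and 4.40 CPM at 0 d and 0.594, 0.938 and 1.36 CPM at 2 d (log2 fold -3.68 ± 0.72, adjusted p = 0.000562). Neither gene's groups overlapped, and replicate 2 was the highest at 0 d for both. In mesocarp the log2 folds were -2.68 ± 0.87 for C.6 (adjusted p = 0.0307), lost without 0 d replicate 1 or 2 or any 1 of the 2 d libraries (adjusted p 0.0729 to 0.0863), and -2.75 ± 0.70 for factor 5 (adjusted p = 0.00694).

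Other members were high at 0 d in replicate 3 alone, the epicarp library in which the ripening genes summed to 2944 CPM. RAP2.1 (Solyc04g078640), named after an Arabidopsis repressor of cold and drought genes, was 1.67, 4.99 and 8.37 CPM in epicarp control and 4.73, 7.80 and 69.6 CPM at 0 d. As TPM its epicarp libraries held 9.68, 29.9 and 50.2 in control, 161, 139 and 98.3 at 2 d and 190, 95.4 and 92.2 at 5 d. Every 2 d and 5 d library was thus above every control library, and RAP2.1 passed in epicarp at 5 d against control. At 0 d in epicarp ERF E.1 (Solyc09g075420) was 11.8, 14.1 and 69.1 CPM and ERF C.3 (Solyc09g066360) was 0.860, 0.821 and 10.7 CPM. The AP2-like gene Solyc11g010710 was 0, 0 and 59.04 CPM, and in mesocarp at 0 d replicate 3 was again the highest for all 4. There the 3 ripening genes summed to 1964, 1754 and 2116 CPM, mostly from Solyc09g089580 (1963, 1746 and 2066 CPM). The other ripening genes were highest in replicate 3 there too. Polygalacturonase (Solyc10g080210) was 0, 1.29 and 14.2 CPM and the NAC gene Solyc10g006880 was 1.13, 6.22 and 36.3 CPM. The calls with the cover of RAP2.1 (log2 fold 2.47 ± 0.72, edgeR adjusted p = 0.0219) and C.3 (3.62 ± 1.21, adjusted p = 0.0428) were lost without epicarp 0 d replicate 3, at adjusted p = 0.675 and 0.462. Both were also lost without control replicate 1 (adjusted p = 0.104 and 0.149) or 2 (adjusted p = 0.0794 and 0.113), C.3 also without control replicate 3 (adjusted p = 0.104). E.1 did not pass with the cover. The part of the ripening genes in these values was not tested.

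Still others were high in the libraries where the summed cuticle genes were high. WIN1-like (Solyc12g009490, chromosome 12, 2802360-2804555), named after an Arabidopsis factor that promotes wax and cutin, was 107, 63.9 and 68.5 CPM in epicarp control, 170, 4.98 and 0 CPM at 0 d, 0.411, 0.141 and 0.681 CPM at 2 d and 0.199, 0.386 and 19.4 CPM at 5 d. The AP2-like gene Solyc03g117720 (chromosome 3, 61225726-61229985) was 73.9, 66.6 and 65.6 CPM in control, 115, 14.6 and 5.97 CPM at 0 d, 4.89, 4.27 and 2.53 CPM at 2 d and 3.97, 6.08 and 43.9 CPM at 5 d. The high library was replicate 1 at 0 d and replicate 3 at 5 d for both genes. The 4 cuticle genes summed to 4945, 2645 and 3044 CPM in epicarp control, 9097, 422 and 465 CPM at 0 d, 323, 239 and 313 CPM at 2 d and 559, 525 and 2594 CPM at 5 d, so the same libraries were high. At 0 d Solyc11g006250 held 5842, 76.5 and 0.272 CPM and Solyc09g014350 held 2427, 36.5 and 0.380 CPM. Solyc02g085870 held 795, 280 and 394 CPM, also highest in replicate 1. The remaining cuticle gene, ECERIFERUM 3 (Solyc03g117800), went otherwise, at 33.5, 29.0 and 70.1 CPM, highest in replicate 3. With light, WIN1-like had a log2 fold of -7.07 ± 2.36 (edgeR adjusted p = 0.0269) and Solyc03g117720 one of -3.47 ± 1.10 (adjusted p = 0.0195). Both calls were lost without 0 d replicate 1 (adjusted p = 0.378 and 0.32) or any 1 of the 2 d libraries (adjusted p 0.0737 to 0.0944 and 0.0548 to 0.0759). The part of the cuticle genes' level in these values was not tested.

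**Figure D4:**
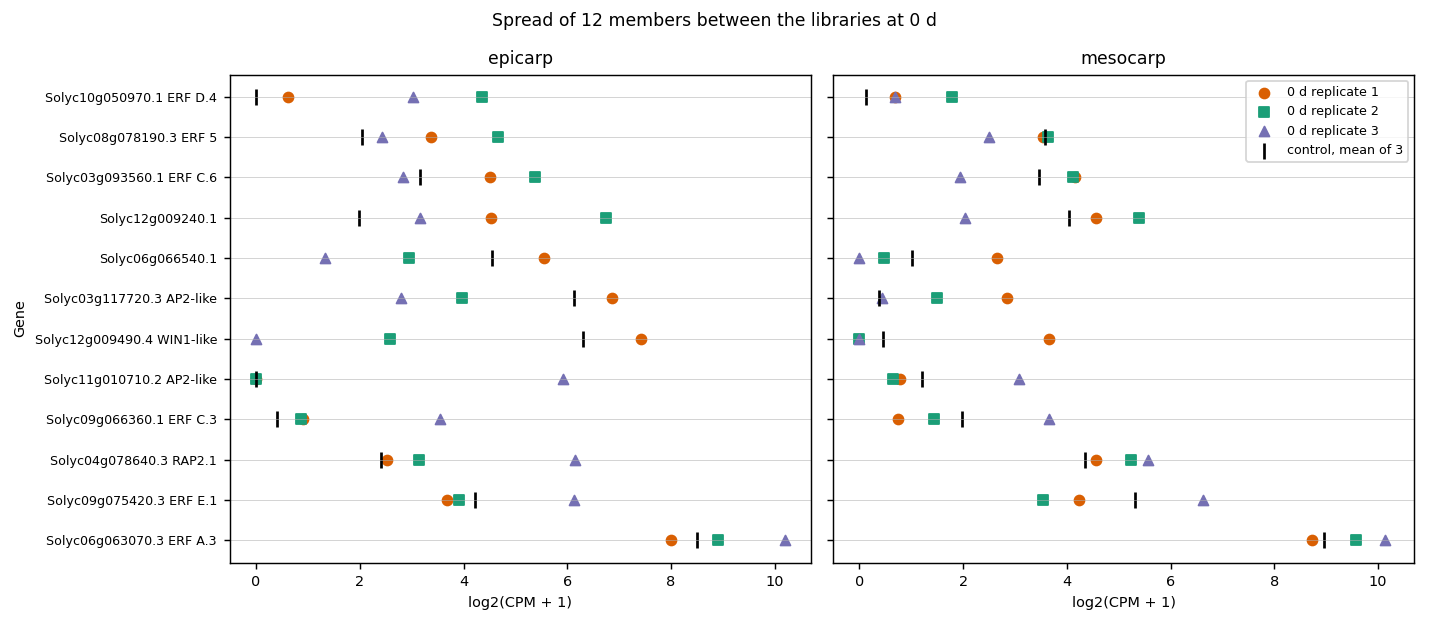
Level of 12 members in the 3 libraries at 0 d (symbols) beside the mean of the 3 control libraries (bar), as log2(CPM + 1), in each tissue. In epicarp the upper 4 genes are highest in replicate 2, the middle 3 in replicate 1 and the lower 5 in replicate 3.

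Across the 70 tested members, the libraries of 1 group differed by more than 10-fold, with a library at 0 taken at the floor, for 16 members in epicarp and 15 in mesocarp at 0 d. In the other groups this was so of 0 to 4 members. The median ratio of the highest to the lowest library was 4.52 in epicarp and 3.92 in mesocarp at 0 d, and 1.38 to 1.75 in the other groups. Of the 70, 21 had their highest group mean in epicarp at 0 d, 13 in epicarp control and 11 in mesocarp control. None of these counts was made over all genes. Over all genes tested, too, replicates correlated less at 0 d (r 0.871 to 0.937 in epicarp, 0.874 to 0.934 in mesocarp), so the spread is not particular to the family.

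Members described as DREB were led by DREB 3 (Solyc04g072900, chromosome 4, 57809402-57810196), at a mean of 238 TPM. Epicarp libraries held 97.4, 118 and 110 CPM in control, 125, 195 and 200 CPM at 0 d, 68.9, 65.3 and 57.7 CPM at 2 d and 80.6, 80.02 and 93.8 CPM at 5 d. The mesocarp libraries stood at 22.3, 23.1 and 25.9 CPM in control, 32.7, 42.3 and 34.5 CPM at 0 d, 25.8, 32.3 and 28.9 CPM at 2 d and 25.6, 33.02 and 32.6 CPM at 5 d. Every epicarp library was above every mesocarp library, and 0 d lay above control in both tissues. With the cover the log2 fold was 0.73 ± 0.16 in epicarp (edgeR adjusted p = 0.00389, but 0.1 with only those groups in the fit). The mesocarp log2 fold was 0.70 ± 0.16 (adjusted p = 0.0196), lost without control replicate 1 (adjusted p = 0.0701) or 0 d replicate 2 (adjusted p = 0.0551) and with only those groups in the fit (adjusted p = 0.235). With light it was -1.38 ± 0.16 in epicarp (adjusted p = 2.74e-06) and -0.18 ± 0.16 in mesocarp (adjusted p = 0.47), and the difference between these, -1.21 ± 0.23, passed (interaction, adjusted p = 0.00868).

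The gene described as DREB 2d-like (Solyc06g033850, chromosome 6, 21015074-21016110) was higher in mesocarp. Its epicarp levels were 0, 0.185 and 0.824 CPM in control, 0, 4.11 and 1.36 CPM at 0 d, 9.60, 6.85 and 9.68 CPM at 2 d and 18.4, 29.1 and 10.2 CPM at 5 d. Its mesocarp levels were 7.73, 15.9 and 21.2 CPM in control, 4.92, 91.2 and 38.9 CPM at 0 d, 34.1, 30.97 and 36.8 CPM at 2 d and 42.7, 113 and 66.1 CPM at 5 d. In both tissues the 2 d and 5 d libraries were above those of control, without overlap. At 5 d against control the log2 fold was 5.89 ± 1.17 in epicarp (edgeR adjusted p = 0.00286) and 2.53 ± 0.89 in mesocarp (adjusted p = 0.0519), and only the first passed; their difference was not tested. Of the other DREB members, Solyc03g124110 had no read in epicarp control or at 2 d and was 1.43, 3.18 and 0.380 CPM at 0 d, at least 34.8-fold and 35.8-fold higher (adjusted p = 0.0292 and 0.0167). Its call with the cover was lost without any 1 of the control libraries or 0 d replicate 2 (adjusted p 0.0782 to 0.0879).

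By 5 d, few members differed from 2 d in the fit of all groups, and more did in fits without the 0 d libraries. In epicarp 1 member passed, the fall of factor 3 (Solyc12g005960), beside 3.27 percent of all genes (1.06 percent higher, 2.21 percent lower). In mesocarp 0 passed in edgeR, beside 2.51 percent (1.07 percent higher, 1.44 percent lower). In mesocarp 11 members had an unadjusted p under 0.05, and DESeq2 called 6, beside 5.64 percent of all genes. Against control, 6 members passed in epicarp at 5 d, 3 higher and 3 lower, beside 14.9 percent of all genes (8.42 percent higher, 6.51 percent lower). In mesocarp 10 passed, 7 higher and 3 lower, beside 20.3 percent (12.6 percent higher, 7.71 percent lower). The balance against control depended on the scaling. With limma on log2(TPM + 1) it turned in mesocarp, to 5 higher and 13 lower, beside 8.4 percent higher and 22.6 percent lower of all genes, whose median log2 fold was then -0.20. With DESeq2 size factors in edgeR mesocarp gave 7 higher and 5 lower, beside 12.2 and 8.6 percent. In epicarp limma gave 4 higher and 9 lower, beside 6.84 and 9.77 percent, and DESeq2 size factors gave 2 higher and 4 lower, beside 7.65 and 6.98 percent. With the 0 d libraries out of the fit, the counts from 2 d to 5 d were 10 in epicarp and 6 in mesocarp, beside 11.4 and 8.77 percent of all genes. Against control they were then 15 in epicarp and 23 in mesocarp, beside 28.0 and 32.4 percent. With only the groups compared in the fit, epicarp gave 9 from 2 d to 5 d and 13 against control, beside 13.9 and 29.4 percent. The mesocarp count against control was 5 without control replicate 2 and 4 without 5 d replicate 2, and the epicarp count from 2 d to 5 d was 2 without 2 d replicate 2.

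CRF1 (Solyc06g009810, chromosome 6, 3842701-3843599), whose name is that of a cytokinin response factor, was lower at 5 d than in control in both tissues. The epicarp libraries stood at 18.6, 20.8 and 20.8 CPM in control and 4.27, 5.36 and 5.54 CPM at 5 d (log2 fold -1.87 ± 0.39, edgeR adjusted p = 0.00347). The mesocarp libraries stood at 23.6, 42.1 and 22.01 CPM in control and 13.2, 10.3 and 10 CPM at 5 d. The groups did not overlap in either tissue. The mesocarp log2 fold of -1.18 ± 0.38 (adjusted p = 0.0313) was lost without control replicate 2 (adjusted p = 0.196) and without 5 d replicate 2 or 3 (adjusted p = 0.104 in each).

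Epicarp and mesocarp were compared within each condition. In control 17 members passed, 12 higher in epicarp and 5 lower, beside 26.8 percent of all genes (13.2 percent higher, 13.6 percent lower). At 0 d 13 passed, 6 higher and 7 lower, beside 18.3 percent (8.78 percent higher, 9.57 percent lower). At 2 d 13 passed, 7 higher and 6 lower, beside 18.5 percent (8.2 percent higher, 10.3 percent lower). At 5 d 11 passed, 5 higher and 6 lower, beside 17.5 percent (7.12 percent higher, 10.4 percent lower). With limma on log2(TPM + 1) the splits were 14 higher and 11 lower in control (beside 11 and 19.5 percent), 11 and 7 at 0 d (beside 8.97 and 9.18 percent) and 7 and 4 at 2 d (beside 10.7 and 8.16 percent). As shares of the 70 the edgeR counts are 24.3%, 18.6%, 18.6% and 15.7%, near those of all genes. Without the 0 d libraries in the fit, 28 members passed in control, 21 at 2 d and 22 at 5 d, beside 37.6, 28.5 and 28.3 percent of all genes. With only the groups compared in the fit, 1 passed at 0 d (0.21 percent of all genes) and 24 at 2 d (32.4 percent). The control count was 11 without mesocarp replicate 3, and the count at 2 d was 8, 5 and 6 without epicarp replicates 1, 2 and 3 and 7 without mesocarp replicate 2 or 3.

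DREB 3 (Solyc04g072900) and Solyc08g082210 were higher in epicarp in all 4 conditions. The log2 difference of DREB 3 was 2.26 ± 0.17 in control (edgeR adjusted p = 2.13e-08), 2.29 ± 0.17 at 0 d (adjusted p = 1.18e-07), 1.08 ± 0.16 at 2 d (adjusted p = 0.000123) and 1.45 ± 0.16 at 5 d (adjusted p = 7.56e-06). Solyc08g082210 was 5.83, 2.11 and 5.34 CPM in mesocarp control and higher in epicarp by 4.29 ± 0.62 on the log2 scale (adjusted p = 5.85e-05). Its difference at 0 d, 1.91 ± 0.58 (adjusted p = 0.0291), was lost with the replicate number as a block (adjusted p = 0.0534), without epicarp replicate 3 (adjusted p = 0.48) and without mesocarp replicate 1 (adjusted p = 0.081) or 3 (adjusted p = 0.0951). Solyc08g008305 had no read in mesocarp at 5 d, where epicarp was at least 126-fold higher (adjusted p = 0.000252). The summed level of the cuticle genes, too, was higher in every epicarp library than in the mesocarp libraries of the same condition other than replicate 1 at 0 d. The part of the cuticle genes in these differences was not tested.

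Other members were higher in mesocarp. The AP2-like gene described as PLT2 (Solyc02g092050), after an Arabidopsis gene of root stem cells, was the member lower in epicarp in all 4 conditions. It was 2.99, 3.47 and 2.29 CPM in mesocarp control and 0, 0 and 0.0915 CPM in epicarp control (edgeR adjusted p = 0.00233). It had no read in epicarp at 0 d, 2 d or 5 d, at least 18-fold, 9.16-fold and 27.9-fold lower than in mesocarp. Its 0 d call was lost with only the groups compared in the fit, where 0 members passed as lower in epicarp. A DREB 2A gene (Solyc10g076370), named after an Arabidopsis factor of drought and heat, was 7.01, 1.03 and 2.76 CPM in mesocarp control and had no read in epicarp control, at least 74.8-fold lower (adjusted p = 0.000512). Both genes were picked for this pattern after their values were seen. Of 7 sieve element genes, 6 had reads, and they summed to 32.6 to 197 CPM in mesocarp and 13.3 to 25.8 CPM in epicarp. Of 36 seed genes, 14 had reads, and they summed to 62.4 to 97.3 CPM in mesocarp control and 10.03 to 14.3 CPM in epicarp control; the part of both lists in these differences was not tested.

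On chromosome 8, Solyc08g081650 passed between the tissues in covered fruit and not in control. In control its difference was -0.22 ± 0.26 (edgeR adjusted p = 0.576), at 0 d -1.29 ± 0.27 (adjusted p = 0.00264), at 2 d -1.23 ± 0.26 (adjusted p = 0.00283) and at 5 d -1.23 ± 0.27 (adjusted p = 0.0033). With only the groups compared in the fit, 0 members passed as lower in epicarp at 0 d, so the 0 d call was lost. The change of this difference with the cover, -1.07 ± 0.37, missed the threshold (interaction, adjusted p = 0.141). Tissue calls of F.4 (Solyc07g053740) and F.3 (Solyc07g049490) at 0 d, of RAP2-10 (Solyc02g093130) at 2 d and of CRF1 (Solyc06g009810) at 5 d were lost with the replicate block, at adjusted p = 0.0585, 0.0586, 0.0568 and 0.0523.

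**Figure D5:**
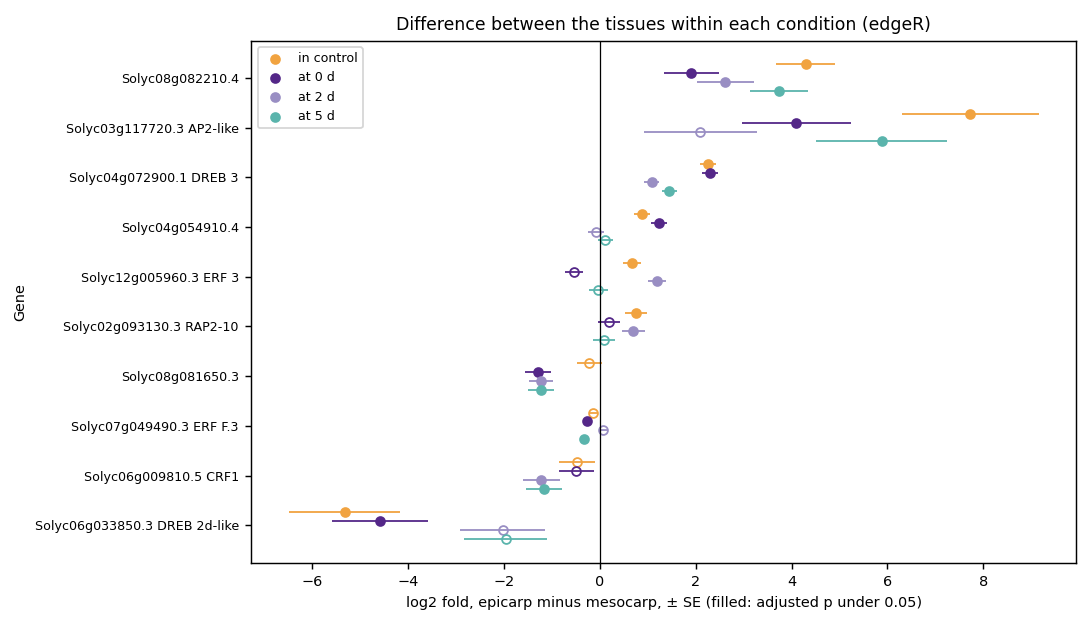
Log2 difference between epicarp and mesocarp ± SE for 10 members in the 4 conditions (colours), with filled points past an adjusted p of 0.05. DREB 3 lies to the right of 0 in every condition, and DREB 2d-like to the left, past the threshold in control and at 0 d.

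The cover effect differed between the tissues for 1 member, downwards (beside 2.56 percent of all genes, 0.744 percent higher and 1.82 percent lower). The effect of the first 2 d of light differed for 4, 2 each way (beside 1.24 percent, 0.668 percent higher and 0.576 percent lower). With only the groups compared in the fit these counts were 0 and 1, beside 0.305 and 0.25 percent. With limma on log2(TPM + 1) they were 3, all downwards, beside 2.79 percent higher and 2.06 percent lower, and 4, 2 each way, beside 1.52 and 0.489 percent. The member of the first was factor 3 (Solyc12g005960), whose cover effect was lower in epicarp by 1.21 on the log2 scale (± 0.27, edgeR adjusted p = 0.0209). That call was lost without epicarp control replicate 3 (adjusted p = 0.0649) and with only those groups in the fit (adjusted p = 0.171). The light effects that differed were those of factor 3, Solyc04g054910, DREB 3 (Solyc04g072900) and ANT (Solyc04g077490). With only those groups in the fit, factor 3 passed and the other 3 did not (adjusted p = 0.0549, 0.11 and 0.152).

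The genes that make, sense and relay ethylene were described beside the family. Of 27 identifiers, 26 were found and 25 tested. In epicarp 6 were higher and 0 lower at 0 d against control, 24% of those tested beside 19.1 percent of all genes, and 1 was higher and 4 lower at 2 d against 0 d, 20% beside 36.7 percent. In mesocarp the same steps gave 1 higher and 0 lower, 4% beside 4.3 percent, then 0 higher and 3 lower, 12% beside 24.1 percent. Without replicate 3 of both tissues at 0 d, 2 passed with the cover and 13 with light in epicarp, the latter 9 higher and 4 lower, beside 17 and 39.5 percent of all genes. In mesocarp 12 then passed with light, 9 higher and 3 lower, beside 26.7 percent of all genes. Leaving out single libraries gave 2 to 9 and 3 to 10 in epicarp and 0 to 3 and 1 to 6 in mesocarp, with 2 without epicarp 0 d replicate 3 for the cover and 10 without it for light.

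Among synthesis genes, ACC synthase 2 (Solyc01g095080) was 0.161, 0 and 0 CPM in epicarp control and 0.0478, 2.31 and 33.6 CPM at 0 d. Of the receptors, which restrain the pathway until ethylene binds, Never ripe-2 (Solyc09g075440) was 84.1, 93.8 and 89.3 CPM in control, 85.9, 65.2 and 489 CPM at 0 d, 310, 307 and 289 CPM at 2 d and 142, 135 and 119 CPM at 5 d. ETR6 (Solyc09g089610) was 13.6, 10.7 and 247 CPM at 0 d. In all of these replicate 3 was the high library at 0 d, as it was for A.3 and E.1 of the family. Of the EIN3-like factors that switch ERF genes on, the one described as EIL (Solyc01g009170) was 64.2, 62.1 and 45.99 CPM in control, 71.7, 149 and 287 CPM at 0 d and 60.2, 58.1 and 58.3 CPM at 2 d. Every 0 d library was above the others, and the log2 folds were 1.59 ± 0.33 with the cover (edgeR adjusted p = 0.00287) and -1.45 ± 0.33 with light (adjusted p = 0.00209). The call with the cover was lost with only those groups in the fit, where 0 pathway genes passed. The other EIN3-like genes listed did not take this course in epicarp. EIL3 (Solyc01g096810) was 108, 157 and 176 CPM at 0 d and 277, 310 and 268 CPM at 2 d. EIL4 (Solyc06g073730) was 77.1, 108 and 141 CPM, then 145, 146 and 144 CPM. EIL1 (Solyc06g073720) was 122, 126 and 202 CPM, then 158, 166 and 143 CPM.

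Relatives whose descriptions use other words fall outside the 159. C-repeat binding factor 1 (Solyc03g026280), of the DREB type and known for responses to cold, had no read in epicarp control and was 3.92, 8.83 and 1.25 CPM at 0 d and 0, 0 and 0.0486 CPM at 2 d. As for D.4 and Solyc01g108240, replicate 2 was the highest at 0 d. In mesocarp this gene was 3.64, 4.53 and 1.71 CPM at 0 d and had no read at 2 d. Ethylene-responsive factor 1 (Solyc05g051200) was higher in epicarp in all 4 conditions, by 3.35, 2.66, 1.51 and 4.02 on the log2 scale in control and at 0 d, 2 d and 5 d (edgeR adjusted p = 0.000122, 0.00143, 0.0374 and 7.84e-05). Pti4 (Solyc05g052050) was 2.31, 19.6 and 32.6 CPM in epicarp control and 11.2, 4.21 and 27.4 CPM at 0 d, while ethylene response factor 4 (Solyc05g052030), a member on the same chromosome, was 1.13, 17.01 and 37.1 CPM in epicarp control and 8.98, 1.80 and 23.9 CPM at 0 d. Control and 0 d overlapped for both.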

How the data were processed

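Paired reads of 150 bases were sequenced from total RNA of 24 libraries, per the labels' protocols. The submitters' processing notes name Trimmomatic 0.39, featureCounts and DESeq2; the aligner and strand setting are not given in the sources here. The authors deposited read counts per gene, which carry gene intervals named for build SL4.0 in the file's chromosome column, and TPM values with a description for each gene. Of the count columns, 2 carry the same header name, could not be tied to a sample and were not used. For mesocarp 2 d replicate 3 and mesocarp 5 d replicate 3, counts were taken back from the deposited TPM and the interval lengths; within a tolerance of 0.01 reads 100.0% of values came out whole in every library, and in the other 22 libraries 100.0% equalled the deposited counts. Gene intervals hold introns, so TPM understates genes with long introns.

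Genes were filtered with filterByExpr, which left 19620, and tested with edgeR 4.0.16 (R 4.3.3) in 1 quasi-likelihood fit of all 24 libraries with TMM scaling, Benjamini-Hochberg adjustment over all genes tested and a threshold of 0.05. The script was tested on simulated data. Alternatives were DESeq2 1.42.0, limma 3.58.1 on log2(TPM + 1) and log2(TPM + 0.1), DESeq2 size factors, no filter, only the groups compared, the replicate number as a block and each library left out; 2 more, without replicate 3 of both tissues at 0 d and without any 0 d library, were chosen after seeing the data. Same-numbered libraries deviated together between the tissues at 0 d (r 0.385 to 0.644), 2 d (0.124 to 0.171) and 5 d (0.194 to 0.305), so the block is given there where it ends a call. The block was 1 term for each replicate number over all 8 groups. Between conditions such libraries did not pair by the same measure (epicarp 0 d with control r -0.004 to 0.142, 2 d with 0 d -0.138 to 0.023). The block is therefore no paired test within a condition, and the main tissue tests leave the pairing out. Depth was 18402751 to 23197867 reads, and a floor of 3 reads over a group stands at 0.0458 to 0.051 CPM, which covers counting error only.

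The members and all gene lists were chosen with earlier results of these data known. Genes are named by a rule: the 5 highest and 5 lowest folds past the threshold in each comparison among members reaching 5 CPM, the 8 highest in TPM, those that pass an interaction, and listed regulators. A further clause of the rule, on protein motifs, was not used here.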

Additional observations from a re-analysis of the deposited data

Results flagged for a closer look

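The effects of the cover or of light differed between epicarp and mesocarp, by edgeR's interaction test, for 4 members. For ethylene-responsive transcription factor 3 (Solyc12g005960) the epicarp effect minus the mesocarp effect was -1.21 for the cover and 1.73 for the first 2 d of light, on the log2 scale. For Solyc04g054910 it was -1.31 for light, for DREB 3 (Solyc04g072900) -1.21 and for ANT (Solyc04g077490) 6.12. With only those groups in the fit, the light effects of the last 3 genes and the cover effect of factor 3 were not called.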

How the results depend on the processing

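Of 114 results on named genes, 45 kept their call under every alternative run and 69 lost it under at least 1; the cause was not tested. One fitted fold turned without being called: for the AP2-like gene Solyc11g010710 in epicarp at 2 d against 0 d it was 5.35 on the log2 scale without 0 d replicate 3 of epicarp (adjusted p in edgeR 0.119) or of both tissues (0.0704). These omissions leave 0 d without a read against 15 reads at 2 d, so the fitted value depends on the prior count and is no bound; with the floor of 3 reads over the libraries left, 2 d was at least 3.17-fold higher. Over all single omissions the fitted values were -6.8 to 5.35. DESeq2 size factors and the replicate block kept all 18 counts of calls within 1.5 times. Without the filter on low counts, 1 member passed in mesocarp at 0 d against control. With only the groups compared in the fit, epicarp gave 3 at 0 d against control, 9 from 2 d to 5 d and 13 at 5 d against control, mesocarp 0 at 0 d against control, the tissues 1 at 0 d and 24 at 2 d, and the interactions 0 for the cover and 1 for light. Limma gave 2 (pseudocount 1) from 2 d to 5 d and 13 (pseudocount 1) at 5 d against control in epicarp, 18 in mesocarp at 5 d against control (5 higher and 13 lower, a split turned from 7 and 3) and 3 for the cover interaction (both pseudocounts). DESeq2 gave 4 from 2 d to 5 d and 12 at 5 d against control in epicarp, 6 from 2 d to 5 d in mesocarp, 20 between tissues at 0 d and 4 for the cover interaction. Without replicate 3 at 0 d the interactions gave 4 and 7. Without any 0 d library the counts were 10 and 15 in epicarp and 6 and 23 in mesocarp at 5 d (against 2 d, then control), and 28, 21 and 22 between tissues in control, at 2 d and at 5 d. Leaving out 1 library gave, in epicarp, 11 to 28, 23 to 34, 1 to 2 and 4 to 5 (0 d against control, 2 d against 0 d, 5 d against 2 d, 5 d against control) and in mesocarp 0 to 4, 7 to 16, 0 to 0 and 4 to 7. Between tissues it gave 11 to 15 (control), 10 to 16 (0 d), 5 to 9 (at day 2) and 8 to 10 (at day 5), and for the interactions 0 to 5 (cover: 0 without epicarp control replicate 3, 5 and 2 without epicarp 0 d replicates 1 and 3, 2 without mesocarp control replicate 2 and 3 without mesocarp 0 d replicate 3) and 4 to 6 (light). Ethylene pathway genes with the cover in epicarp gave 0 with only those groups, 3 in limma (pseudocount 0.1), 2 without replicate 3 and 2 to 9 without 1 library; with light 2, 13 without replicate 3 and 3 to 10. In mesocarp they gave 0 with only those groups, 0 in limma (both pseudocounts), 3 in DESeq2 and 0 to 3 with the cover, and with light 1, 5 in limma (pseudocount 0.1), 5 in DESeq2, 12 without replicate 3 and 1 to 6.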
